A study of Mus musculus with 4 samples.

Results

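The genes described here encode the proteins of the small nuclear ribonucleoproteins (snRNPs) and their close partners in the spliceosome, the machine that removes introns from pre-mRNA. They were chosen by symbol among protein-coding genes: the Lsm and Snrp families, the Snrnp genes, the Sf3a and Sf3b subunits, the Prpf genes, Sart1, Sart3 and Usp39. The choice gave 57 genes of the 55487 gene IDs listed. By their textbook place they were divided into the U6 Lsm ring with Sart3 (8 genes), the U4/U6.U5 tri-snRNP (13), U1 (6), U2 (11), the Sm core (8) and 11 other members.

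A spliceosome is assembled anew on each intron. The U1 snRNP binds the 5′ splice site, the U2 snRNP the branch point, and the U4/U6.U5 tri-snRNP then joins as a unit, after which U1 and U4 leave and U6 pairs with the 5′ splice site and with U2. U1, U2, U4 and U5 RNAs each carry a ring of Sm proteins, whereas U6 RNA carries a ring of Lsm2 to Lsm8 that binds the uridines at its 3′ end. The U6 gene encodes a short run of uridines there, which TUT1, the enzyme whose gene was targeted in the study, extends and USB1 trims.

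RNA was measured in 4 libraries, 1 per group, of neural stem cells grown as neurospheres from the neocortex of mid-gestation mouse embryos. The control cells were Tut1f/f and received empty lipid nanoparticles (LNP). The Tut1 KO (Tut1f/f), Trp53 KO (p53f/f) and double KO (Tut1f/f;p53f/f) cells received LNP carrying mRNA for Cre recombinase, which deletes DNA between loxP sites, and the series text gives 3 days of treatment. The control therefore differed from each of the other groups in Cre as well as in the targeted gene. Sex-linked transcripts also set the control and double KO libraries apart from the rest, as given below. No untreated library without floxed alleles was analysed here, and the labels do not say how many embryos or cultures stand behind a library.

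Values are transcripts per 1000000 transcripts (TPM), which take transcript length into account, and differences are between values of log2(TPM + 1). With 1 library per group a difference between 2 libraries could not be tested and no error is given. A fit of both labels over the 4 libraries was not run. The Tut1 labels were compared with Trp53 intact (labelled Tut1 KO minus control) and with Trp53 deleted (double KO minus Trp53 KO). In every list of 4 TPM values below, the order is control, library labelled Tut1 KO, then Trp53 KO and double KO.

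Tut1 itself had 12.2, 29.8, 12.5 and 13.7 TPM, so the library labelled Tut1 KO held the highest value and the double KO library was not below the Trp53 KO library. The deletion removes exon 2, which a gene-level value need not show, and every direction drawn from the Tut1 labels below rests on those labels. Trp53 had 119.9, 100.4, 39.7 and 41.9 TPM, low in both libraries labelled for its loss. Of sex-linked transcripts, Xist had 0.01, 188, 204 and 0.01 TPM and Ddx3y 24.4, 0, 0 and 25.7 TPM. Control and double KO were thus alike in these and unlike the others. Each comparison below therefore crossed this split, the 2 Tut1 comparisons in opposite directions. The part of this split in the values below was not tested. All 11 neural stem cell markers had at least 10 TPM in the control library and 10 of them did in each of the others, the exception being Prom1 (10.6, 7.56, 5.69 and 8.73 TPM). No marker of microglia (5 genes), endothelium (4) or fibroblast and mural cells (4) reached 1 TPM, whereas Olig2 of the oligodendrocyte lineage had 619, 529.9, 570.2 and 583 TPM. Depth cannot be recovered from TPM. Over all genes with at least 10 TPM in a library of the comparison, the median difference was -0.09 with Trp53 intact and 0.05 with Trp53 deleted. It was -0.05 for Trp53 KO minus control and 0.09 for double KO minus Tut1 KO.

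Transcripts of the spliceosome proteins were abundant. In the control library the median of the 57 genes was 97.8 TPM, against 33.0 TPM over the 8042 protein-coding genes with at least 10 TPM there. Of the 57 genes, 56 had at least 10 TPM in all 4 libraries. The exception was Lsm11, a subunit of the histone pre-mRNA processing U7 snRNP, with 7.34, 6.45, 7.16 and 7.72 TPM. Together the members held 6641, 7475, 6734 and 7439 TPM. The sums of both libraries labelled for Tut1 loss thus lay above those of both others. The median of the members did not follow the sums. It was 97.8, 94.1, 78.1 and 101 TPM, lower in the labelled Tut1 KO library than in the control. In bulk RNA, more cells of a type and more RNA per cell cannot be told apart.

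Most members varied little. The highest of the 4 values was less than 1.5 times the lowest for 44 of the 56 genes (78.6%), with a median ratio of 1.25, against 81.9% and 1.28 over 7244 protein-coding genes with at least 10 TPM in all libraries. In the Sm core all 8 genes were under 1.5 times. The widest members were Prpf38b (2.60 times), Prpf3 (2.12 times), Lsm10 (2.06 times) and Snrnp200 (1.90 times), 3 of them in the tri-snRNP group.

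The question the Tut1 comparisons put to these genes is whether the spliceosome's protein transcripts differed where the U6 uridylyltransferase gene was targeted. In 23 of the 56 members both Tut1-labelled libraries lay above both others, and in 3 both lay below. Over all 9314 genes with at least 10 TPM in some library these shares were 15.3% and 17.1%. The 23 genes comprised 4 of the 8 in the U6 group (Lsm3, Lsm4, Lsm6 and Lsm7), 6 of the 13 in the tri-snRNP (Prpf3, Prpf38b, Prpf6, Prpf8, Sart1 and Snrnp200), 1 of 6 in U1 (Snrpa), 6 of 11 in U2 (Sf3a1, Sf3a2, Sf3b2, Sf3b4, Sf3b5 and Sf3b6), 6 of 8 in the Sm core (Snrpb, Snrpd1, Snrpd2, Snrpd3, Snrpe and Snrpf) and none of the other members. The 3 genes with both below were Prpf38a, Snrnp70 and Lsm14b. For most of the 23 the gap was small: in 18 of them the lower Tut1-labelled value was at most 1.24 times the higher of the others. The exceptions were Prpf38b (2.09 times), Snrnp200 (1.64 times), Prpf8 (1.42 times), Prpf3 (1.40 times) and Lsm7 (1.37 times).

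**Figure D1:**
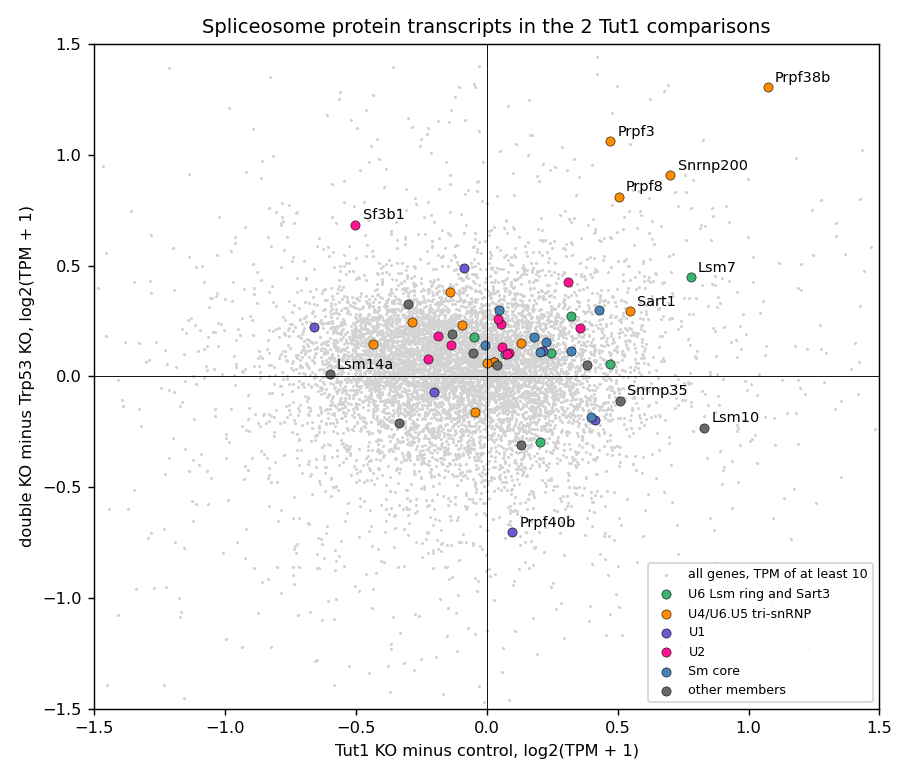
Difference in log2(TPM + 1) between the libraries labelled Tut1 KO and control (x axis) and between double KO and Trp53 KO (y axis), 1 library per group. Grey points are all 9314 genes with at least 10 TPM in some library (313 with a difference beyond 1.5 on either axis are not drawn), coloured points the 56 spliceosome members by group; Prpf38b, Snrnp200, Prpf8 and Prpf3 stand at the upper right.

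A member was called at a difference of at least 1. With Trp53 intact 1 of 56 members (Prpf38b) was higher by this rule and none was lower, where 1.48% of 9032 genes were higher and 2.61% lower. With Trp53 deleted 2 members (Prpf38b and Prpf3) were higher and none was lower, where 1.41% of 8976 genes were higher and 1.79% lower. At a 1.5-fold difference on the same scale, 4 members were higher with Trp53 intact (Prpf38b, Snrnp200, Lsm7 and Lsm10) and 2 lower, among them Lsm14a, where 4.01% and 8.1% of all genes were. With Trp53 deleted 5 were higher (Prpf38b, Prpf3, Snrnp200, Prpf8 and Sf3b1) and 1 lower (Prpf40b), where 3.48% and 4.41% of all genes were. Prpf38b and Snrnp200 were at least 1.5-fold higher in both comparisons, as were 59 (0.633%) of all 9314 genes, and Prpf38b was past the threshold of 1 in both, as were 14 (0.15%). Counts by sign were 37 of 56 above 0 with Trp53 intact (39.3% of all genes) and 46 of 56 with Trp53 deleted (58.7%). In both at once, 30 of 56 were above 0 (22.0% of all genes) and 3 below (24.1%).

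The 4 largest differences that both Tut1 comparisons shared among the members were in the tri-snRNP group. The tri-snRNP is the particle that brings U6 into the spliceosome. Prpf8 encodes the large scaffold at the catalytic centre and Snrnp200 the helicase Brr2 that unwinds U4 from U6. Prpf3 encodes a protein of the U4/U6 duplex. Prpf38b encodes a paralogue of Prpf38a, a protein of the complex formed when the tri-snRNP has joined. Both Prpf38 genes were grouped here with the tri-snRNP. Of these, PRPF8, SNRNP200 and PRPF3 are genes of dominant retinitis pigmentosa in humans, as are PRPF4, PRPF6 and PRPF31.

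Prpf38b (ENSMUSG00000027881, chromosome 3, 108902805 to 108911727, minus strand, GRCm38) had 25.2, 54.2, 25.9 and 65.5 TPM. Both Tut1-labelled libraries were more than 2 times both others, and the differences were 1.07 with Trp53 intact and 1.30 with Trp53 deleted. Its paralogue Prpf38a had 98.6, 95.7, 96.9 and 86.7 TPM, with differences of -0.04 with Trp53 intact and -0.16 with Trp53 deleted. The ratio of Prpf38b to Prpf38a was 0.256, 0.566, 0.267 and 0.755 in the 4 libraries.

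Snrnp200 (ENSMUSG00000003660, chromosome 2, 127208386 to 127240451, plus strand, GRCm38) had 45.2, 74.2, 42.0 and 79.7 TPM, and the differences were 0.70 with Trp53 intact and 0.91 with Trp53 deleted. The Tut1-labelled values did not overlap the others. Prpf8 (ENSMUSG00000020850, chromosome 11, 75486816 to 75509449, plus strand, GRCm38) had 71.7, 102, 67.7 and 119 TPM and differences of 0.50 with Trp53 intact and 0.81 with Trp53 deleted, with the same separation. Prpf8 and Snrnp200 kept a ratio between 1.38 and 1.61 in the 4 libraries. Both proteins belong to the U5 snRNP, whose GTPase Eftud2 had 95.8, 87.0, 83.1 and 95.7 TPM and whose WD-repeat protein Snrnp40 had 104, 104, 109 and 114 TPM. Prpf8 was 0.748 and 0.814 times Eftud2 in the control and Trp53 KO libraries, and 1.17 and 1.25 times Eftud2 in the libraries labelled for Tut1 loss.

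Prpf3 (ENSMUSG00000015748, chromosome 3, 95830124 to 95855885, minus strand, GRCm38) had 38.9, 54.4, 30.4 and 64.5 TPM, so it was lowest in the Trp53 KO and highest in the double KO library. The differences were 0.47 with Trp53 intact and 1.06 with Trp53 deleted. Its U4/U6 partner Prpf4, the lowest member of the group by mean, had 18.2, 16.5, 15.8 and 20.9 TPM and differences of -0.14 with Trp53 intact and 0.38 with Trp53 deleted. Ranked over all 9314 genes by the smaller of the 2 Tut1 differences, Prpf38b was in place 13, Snrnp200 in place 37, Prpf8 in place 83 and Prpf3 in place 100.

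**Figure D2:**
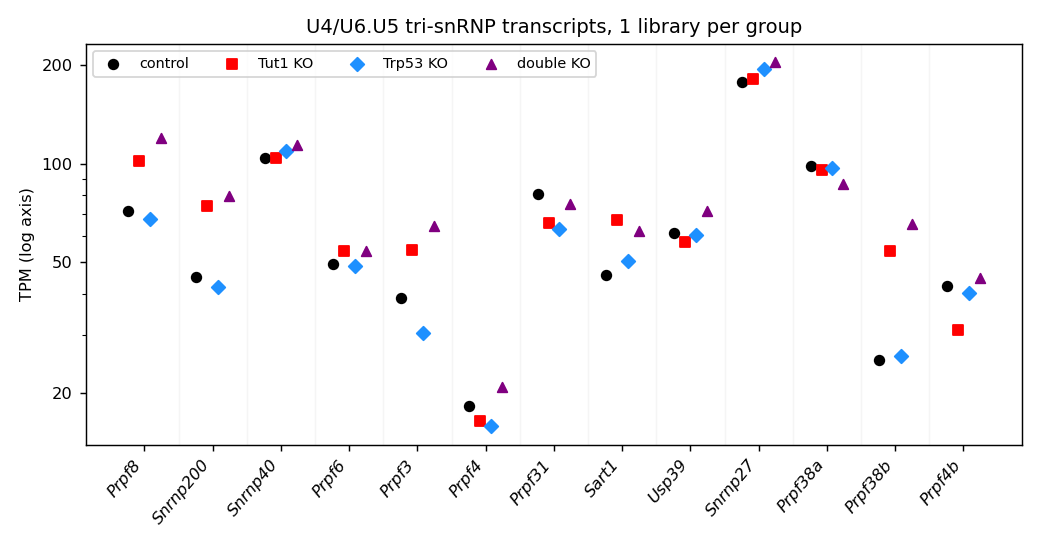
TPM (log axis) of the 13 genes of the tri-snRNP group in each of the 4 libraries, 1 symbol per library. Prpf8, Snrnp200, Prpf3, Prpf38b, Sart1 and, by a small gap, Prpf6 show both Tut1-labelled libraries above both others, while Snrnp40 and Snrnp27 lie close together.

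The other 9 members of the tri-snRNP group had smaller differences common to both Tut1 comparisons. Sart1, which holds U4/U6 and U5 together, had 45.7, 67.3, 50.5 and 62.2 TPM and differences of 0.55 with Trp53 intact and 0.30 with Trp53 deleted. Prpf6, a bridging protein of the tri-snRNP, had 49.3, 54.1, 48.8 and 54.3 TPM, and Snrnp27, the highest of the group, had 178, 181, 195 and 204 TPM. Prpf31, which binds the U4 RNA, was highest in the control (80.8, 66.0, 63.4 and 75.2 TPM), and Usp39, which helps the tri-snRNP join, was highest in the double KO library (61.5, 57.6, 60.7 and 71.5 TPM). Prpf4b, a kinase that acts on tri-snRNP proteins, was lowest in the labelled Tut1 KO library, with 42.5, 31.2, 40.5 and 44.8 TPM and differences of -0.43 with Trp53 intact and 0.14 with Trp53 deleted. As a group the 13 genes had a median of 0.03 with Trp53 intact and 0.24 with Trp53 deleted. Above 0 were 8 of 13 and 12 of 13 (39.3% and 58.7% of all genes). Across these 13 genes the 2 Tut1 comparisons, which share no library, had a Pearson correlation of 0.81 and a Spearman correlation of 0.59. Across all 56 members the values were 0.26 and 0.06, and across 8694 genes -0.11 and -0.03. These are descriptions over genes of the same libraries, which are not independent replicates.

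The upstream sequences of these 4 genes are shown because the genes were higher together. Each is the 200 bases before the RefSeq transcription start (GRCm38.p6), 5′ to 3′ on the strand of the gene, with CCGGAA, the core of ETS factor sites, and CCAAT, the box bound by NF-Y, in capitals wherever they or their reverse complements TTCCGG and ATTGG occurred. For Prpf3, which has 2 annotated starts, the one farther upstream was used.
Prpf38b, chr3:108911730-108911929, minus strand: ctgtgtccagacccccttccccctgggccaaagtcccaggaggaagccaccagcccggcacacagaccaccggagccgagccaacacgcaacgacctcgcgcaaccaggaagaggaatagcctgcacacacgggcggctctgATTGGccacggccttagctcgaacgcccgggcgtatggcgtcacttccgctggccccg
Snrnp200, chr2:127208186-127208385, plus strand: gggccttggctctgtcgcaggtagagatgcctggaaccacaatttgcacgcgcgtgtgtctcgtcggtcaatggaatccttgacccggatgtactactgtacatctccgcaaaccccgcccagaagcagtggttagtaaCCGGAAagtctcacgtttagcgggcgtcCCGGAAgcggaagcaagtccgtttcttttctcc
Prpf8, chr11:75486577-75486776, plus strand: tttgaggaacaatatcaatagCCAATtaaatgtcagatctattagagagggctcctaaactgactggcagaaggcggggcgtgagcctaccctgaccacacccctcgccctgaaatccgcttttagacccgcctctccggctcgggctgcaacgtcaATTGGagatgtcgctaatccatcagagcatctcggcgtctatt
Prpf3, chr3:95855886-95856085, minus strand: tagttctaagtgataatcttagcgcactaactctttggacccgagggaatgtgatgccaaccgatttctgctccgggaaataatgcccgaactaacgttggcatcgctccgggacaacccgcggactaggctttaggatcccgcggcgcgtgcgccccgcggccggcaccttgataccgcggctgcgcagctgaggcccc

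None of the letters searched was held by all 4 genes. In the whole window of 250 bases before to 50 after the start, CCGGAA or TTCCGG was found for Snrnp200 and, at its other start alone, for Prpf3, and CCAAT or ATTGG for Prpf38b and Prpf8. Of the 57 members 45 had a RefSeq window. Members and protein-coding genes were counted as genes with a match at any of their starts. The share of all windows counts each start alone, expressed or not, so it is not directly comparable with the shares of genes. On either strand CCGGAA was held by 23 of the 45 members (51.1%), against 14.9% of all 32851 windows and 35.3% of 6854 protein-coding genes with at least 10 TPM in some library. CCAAT was held by 18 (40.0%), against 37.4% of all windows and 44.2% of those genes. GGGCGG, the core of Sp1 sites, was held by 31 (68.9%), against 35.7% and 73.0%. CACGTG was held by 4 (8.89%), against 7.15% and 12.4%, and TATAAA by 4 (8.89%), against 13.6% and 7.75%. None of these motifs contains another, although matches of different motifs can share bases at their ends, and a match is only a match of letters.

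In the U6 Lsm ring the differences were smaller than those of Prpf38b. Lsm7 stood apart from the rest of the ring, with 164, 282, 175 and 239 TPM and differences of 0.78 with Trp53 intact and 0.45 with Trp53 deleted. Its Tut1-labelled values did not overlap the others. Lsm4, the highest of the group, had 245, 339, 260.5 and 270.5 TPM, and Lsm3 had 229, 272, 247 and 266 TPM. In Lsm4 the separation came from the labelled Tut1 KO library, the double KO value being close to that of the Trp53 KO library (difference 0.05). Lsm6 had 84.4, 106, 73.4 and 89.0 TPM, with differences of 0.32 with Trp53 intact and 0.27 with Trp53 deleted.

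The remaining ring subunits did not separate by the Tut1 labels. Lsm2 had 97.8, 99.8, 115 and 120.0 TPM, higher in the 2 libraries labelled for Trp53 loss. Lsm5 had 144, 166, 141 and 115 TPM, highest in the labelled Tut1 KO and lowest in the double KO library, and its differences were 0.21 with Trp53 intact and -0.29 with Trp53 deleted. Lsm8, the subunit that sets the U6 ring apart from the cytoplasmic Lsm1 to Lsm7 ring, had 127, 123, 125 and 142 TPM. Sart3, the chaperone that anneals U6 to U4, was the lowest of the group, with 40.5, 42.5, 43.8 and 47.1 TPM. The group median was 0.23 with Trp53 intact and 0.10 with Trp53 deleted, with 7 of 8 genes above 0 in each (39.3% and 58.7% of all genes). Summed over the 8 genes, the levels were 1132, 1431, 1181 and 1289 TPM.

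The enzymes and binders of U6 RNA itself were compared as a further list of 6 genes, which included Tut1. Usb1, which trims the U6 tail, had 24.4, 22.5, 30.0 and 23.3 TPM, with differences of -0.11 with Trp53 intact and -0.35 with Trp53 deleted. Ssb, the La protein that first holds the uridine end, had 339, 279, 288 and 367 TPM, lower in the labelled Tut1 KO and Trp53 KO libraries. Mettl16, the methyltransferase of U6, had 7.95, 8.02, 6.59 and 10.9 TPM and reached 10 TPM in the double KO library alone.

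The Sm core was the most abundant group, with summed levels of 2036, 2463, 2128 and 2355 TPM. Its proteins form the ring around U1, U2, U4 and U5 RNA. Snrpd1, its highest member, had 459, 519.8, 486 and 549.6 TPM, and Snrpe, next to it, had 413, 557, 428 and 527 TPM. In both the Tut1-labelled values lay above the others, by ratios of 1.07 and 1.23 between the nearest values. Snrpf had 251, 314, 266 and 288 TPM, and Snrpd2 had 206, 241, 209.7 and 233 TPM, with the same order. Snrpg departed from it, with 251, 330.5, 289 and 254 TPM: the labelled Tut1 KO library was highest and the double KO library was near the control. The median was 0.21 with Trp53 intact and 0.15 with Trp53 deleted, with 7 of 8 genes above 0 in each (39.3% and 58.7% of all genes).

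Snrpe has a processed pseudogene in the table, Snrpert, whose values ran the other way. Snrpert was listed at 125, 95.2, 124 and 84.1 TPM, low where Snrpe was high. The sum of both was 538, 653, 552 and 611 TPM, and its differences were 0.28 with Trp53 intact and 0.15 with Trp53 deleted, against 0.43 and 0.30 for Snrpe alone. How reads were divided between such copies was not stated, so the Snrpe values are uncertain. Among the other members, listed pseudogenes named after them reached 6.02 TPM at most (for Sf3b4).

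Snrpn, the neuronal paralogue of Snrpb expressed from the paternal allele, was the lowest of the Sm group, with 69.9, 69.6, 63.0 and 69.6 TPM. Snrpb had 272, 313, 282 and 305 TPM. The ratio of Snrpn to Snrpb was 0.257 in the control and between 0.222 and 0.229 in the 3 Cre-treated libraries. Snrpn shares exons with Snurf and another annotated gene, which were below 1 TPM.

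**Figure D3:**
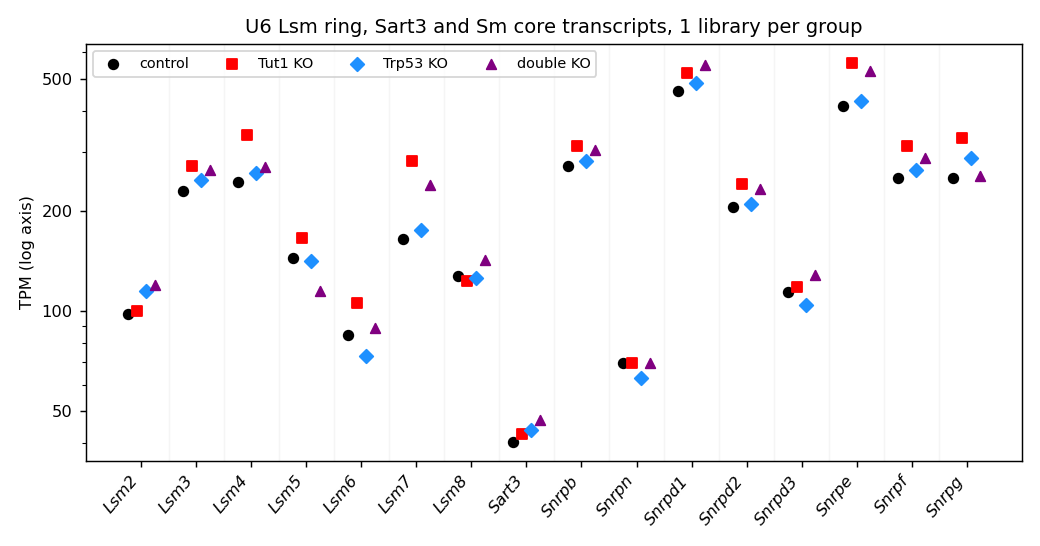
TPM (log axis) of the 8 genes of the U6 Lsm ring with Sart3 and the 8 Sm core genes in each of the 4 libraries, 1 symbol per library. Lsm7, Snrpe and Snrpd1 show both Tut1-labelled libraries above both others, and Lsm5 and Snrpg do not.

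The U2 group, whose SF3A and SF3B complexes hold the branch point, was above 0 in all 11 genes with Trp53 deleted, with a median of 0.18, while 58.7% of all genes were above 0. With Trp53 intact 7 of 11 were above 0 (39.3% of all genes) and the median was 0.06. Sf3a2 had 75.6, 94.1, 72.3 and 97.5 TPM and differences of 0.31 with Trp53 intact and 0.43 with Trp53 deleted. Sf3b5, the lowest of the group, had 22.8, 29.4, 24.0 and 28.1 TPM, and Sf3b2, the highest, had 235, 249.6, 224 and 241 TPM.

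Sf3b1, which clasps the branch point and is the target of splicing inhibitors and of recurrent mutations in blood cancers, split the libraries differently. It had 114, 80.5, 78.1 and 126 TPM, high in the control and double KO and low in the others. Its differences were -0.50 with Trp53 intact and 0.69 with Trp53 deleted, of opposite sign in the 2 Tut1 comparisons. The same pair of libraries, control and double KO, was set apart by sex-linked transcripts: Xist was listed at 0.01 TPM in each of them against 188 and 204 TPM in the labelled Tut1 KO and Trp53 KO libraries. The part of this split in the Sf3b1 values was not tested.

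The U1 group had no common direction. Its medians were 0.01 with Trp53 intact and 0.02 with Trp53 deleted, with 3 of 6 genes above 0 in each (39.3% and 58.7% of all genes). Snrnp70, which binds the U1 RNA, had 183, 159, 188 and 179.6 TPM, and Snrpa, the only U1 member with both Tut1-labelled libraries above the others, had 196, 228, 212 and 229 TPM. Snrpc, which contacts the 5′ splice site and was the highest of the group, had 208, 278, 264 and 231 TPM.

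Prpf40b, a U1-associated protein, had 26.8, 28.8, 40.7 and 24.6 TPM, highest in the Trp53 KO library, with differences of 0.10 with Trp53 intact and -0.70 with Trp53 deleted. Prpf39, the lowest of the group, had 23.5, 22.0, 21.4 and 30.5 TPM.

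Among the other members, Lsm10 and Snrnp35 stood out. Lsm10, a subunit of the U7 snRNP, had 16.1, 29.5, 33.3 and 28.2 TPM: it was low in the control and similar in the 3 Cre-treated libraries. Its differences were 0.83 with Trp53 intact and -0.23 with Trp53 deleted. Snrnp35, a protein of the U11/U12 snRNP of the minor spliceosome, had 27.8, 40.0, 23.4 and 21.6 TPM, highest in the labelled Tut1 KO library, with differences of 0.51 with Trp53 intact and -0.11 with Trp53 deleted. Of the other U11/U12 members, Snrnp25 had 56.5, 62.1, 68.7 and 55.2 TPM and Snrnp48 had 29.3, 23.6, 28.3 and 35.8 TPM, with the lowest value in the double KO library for the former and in the labelled Tut1 KO library for the latter.

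Lsm1, the subunit that marks the cytoplasmic ring of mRNA decay, had 15.5, 20.5, 21.1 and 21.9 TPM, and its ratio to Lsm8 was 0.122 in the control and between 0.154 and 0.168 in the others. Lsm14a, a protein of P-bodies, had 129, 85.1, 115 and 116 TPM, lowest in the labelled Tut1 KO library, with differences of -0.60 with Trp53 intact and 0.01 with Trp53 deleted. Its paralogue Lsm14b had 125, 98.9, 117 and 101 TPM, lower in both Tut1-labelled libraries. Prpf19, the ubiquitin ligase at the core of the Prp19 complex and the highest of these members, had 195, 201, 179.7 and 186 TPM.

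**Figure D4:**
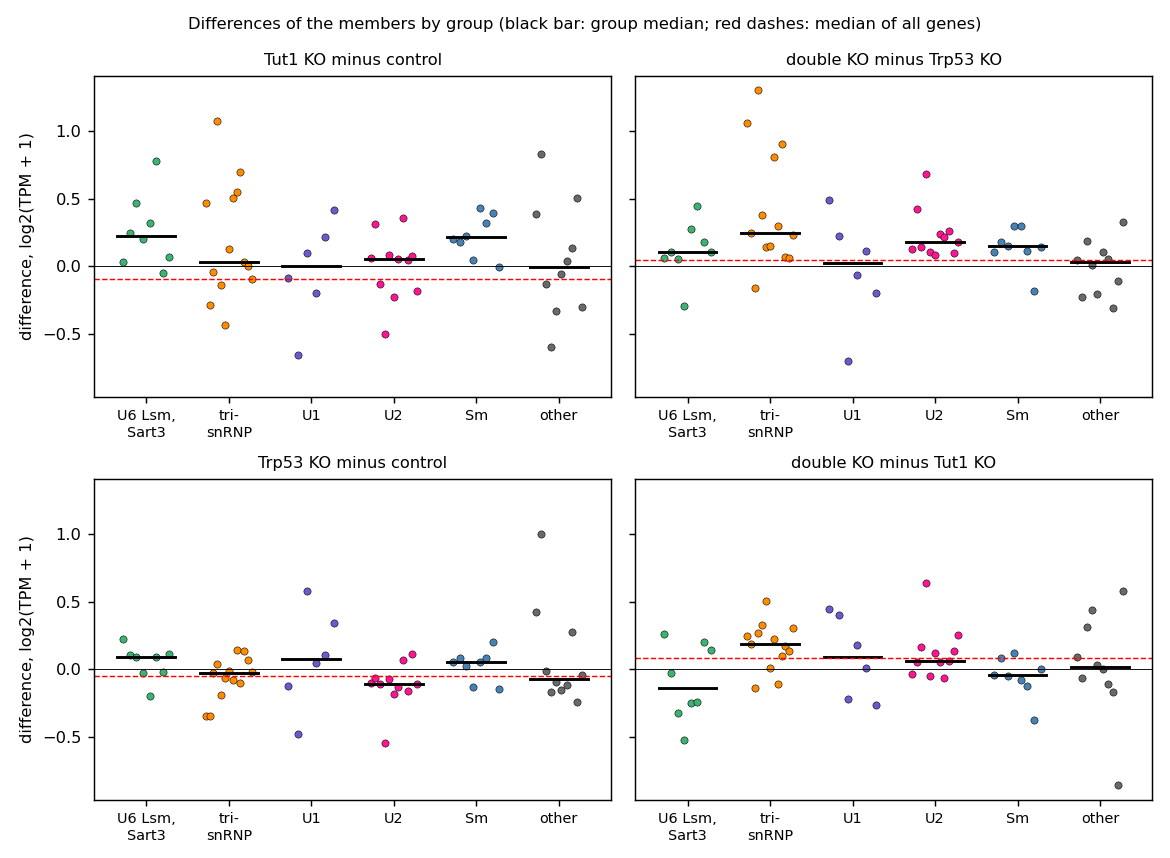
Difference in log2(TPM + 1) of each member in 4 comparisons of libraries, by group; points are genes, black bars group medians and red dashed lines the median of all genes with at least 10 TPM. With Trp53 deleted all 11 U2 genes lie above 0 (58.7% of all genes) and 2 genes of the tri-snRNP group lie above 1 (1.41% of all genes).

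In the Trp53 comparisons fewer members were past 1.5-fold. In Trp53 KO minus control 24 of 56 members were above 0 (40.1% of all genes), and 1 was higher by the threshold of 1 and none lower, where 1.92% and 1.91% of 9055 genes were. The member was Lsm10, at 1.0. At 1.5-fold it remained the only one, none being lower (4.09% and 4.33% of all genes). In double KO minus Tut1 KO 35 of 56 were above 0 (60.3% of all genes), and none passed the threshold in either direction, where 2.13% and 1.77% of 8950 genes did. At 1.5-fold, Sf3b1 was higher and Snrnp35 lower (6.49% and 4.18% of all genes). Both Trp53-labelled libraries lay above both others for 6 members (14.2% of all genes) and below for 3 (Lsm5, Prpf19 and Snrnp35, where the share of all genes was 13.4%). The tri-snRNP medians were -0.02 and 0.19 in these 2 comparisons, the U6 group's 0.09 and -0.14, the U2 group's -0.11 and 0.06, and the Sm core's 0.05 and -0.04. After Lsm10, the largest difference in Trp53 KO minus control was that of Prpf40b (0.58), and in double KO minus Tut1 KO the largest were those of Snrnp35 (-0.86) and Sf3b1 (0.64).

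Transcript length and GC content moved with some of these values. Over protein-coding genes, the difference with Trp53 intact had a Spearman correlation across genes of -0.38 with transcript length (8255 genes) and 0.46 with GC content (8250 genes). Many Sm and Lsm transcripts are short. The 10 members under 1000 nucleotides had a median of 0.23 in this comparison, next to 0.22 over 480 protein-coding genes of that length. With Trp53 deleted the same 10 members had 0.09, next to -0.0016. For the long transcripts it was otherwise: the median of 937 genes over 6000 nucleotides was -0.30 with Trp53 intact, where Prpf8 (7442 nucleotides) had 0.50 and Snrnp200 (6745 nucleotides) had 0.70. After a quadratic fit on length and GC content was taken out of each library, Prpf38b had 1.22 and 1.23 in the 2 Tut1 comparisons, Snrnp200 0.87 and 0.86, Prpf8 0.68 and 0.76, Prpf3 0.61 and 0.997, and Lsm7 0.68 and 0.50. Under the same correction Sf3b1 came to -0.11 and Prpf4b to 0.04 with Trp53 intact. Prpf3 with Trp53 deleted thus fell just under the threshold of 1, as did Lsm10 in Trp53 KO minus control, at 0.92. With this correction 26 members had both Tut1-labelled libraries above both others, and 21.1% of all genes did. Proliferation genes also differed in the labelled Tut1 KO library, where 15 of 17 were below the control, as were 5485 of all 9032 genes. Their median was -0.34 there (-0.09 over all genes) and 0.04 with Trp53 deleted (0.05 over all genes). The part of proliferation genes in the values above was not tested.

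The exons of 4 members (Lsm3, Sf3b3, Snrpa1 and Snrpn) overlap those of another annotated gene on their strand, and those of 13 (Lsm14a, Prpf31, Prpf39, Prpf4b, Sart1, Sf3a2, Sf3b2, Sf3b3, Sf3b4, Snrpa, Snrpd3, Snrpf and Snrpn) overlap a gene on the opposite strand. The labels name a kit that keeps strand, but whether counting used it was not given in the sources used here, so these genes are less certain. Prpf38b, Snrnp200, Prpf8, Prpf3 and Lsm7 overlap no exon of another gene. Prpf38b has 8 annotated transcripts, Prpf3 and Lsm7 9 each, Snrnp200 5 and Prpf8 4, and which of them were present was not analysed here.

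Other proteins of the spliceosome, taken as 8 lists of 83 genes, served for comparison. Their median was -0.08 with Trp53 intact and 0.16 with Trp53 deleted, with 34 of 80 and 64 of 81 above 0 (39.3% and 58.7% of all genes). Both Tut1-labelled libraries lay above both others in 22 of 81 and below in 7 (15.3% and 17.1% of all genes). Among 13 further proteins of the tri-snRNP and the complex it joins, the cyclophilin Ppih, which binds the Prpf3 and Prpf4 proteins, had 82.9, 107, 65.1 and 101 TPM and differences of 0.36 with Trp53 intact and 0.62 with Trp53 deleted. The helicase Ddx23, which acts in the exchange of U1 for U6, had 83.2, 95.0, 74.8 and 107 TPM. Txnl4a, a small U5 protein whose exons overlap those of another gene on its strand, had 16.2, 29.9, 25.2 and 31.7 TPM. Ubl5 ran the other way, with 166, 149.8, 152 and 83.4 TPM, lowest in the double KO library. Mfap1a, a protein of the same stage, had 23.4, 20.1, 19.4 and 24.8 TPM.

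In the U1-associated and U2-associated lists (5 and 10 genes) the values scattered. Tia1, which helps U1 at weak 5′ splice sites and whose exons overlap another gene, had 33.3, 53.8, 68.2 and 28.1 TPM, and Luc7l2 had 98.3, 59.9, 90.7 and 96.3 TPM. Smndc1, a protein of the U2 particle, had 70.9, 64.0, 39.5 and 88.9 TPM, lowest in the Trp53 KO library, and the branch point protein Sf1 had 157, 126, 177 and 109 TPM. Ddx39b, a helicase of spliceosome assembly and mRNA export whose exons overlap those of 2 other annotated genes, had 281, 366, 366 and 266 TPM, high in the 2 libraries with Xist. Dhx15, the helicase that takes spliceosomes apart, had 179, 141, 156 and 187 TPM, and Luc7l3 had 123, 95.0, 119.8 and 129.7 TPM, both lowest in the labelled Tut1 KO library. The list medians were -0.36 and -0.14 with Trp53 intact, and -0.17 and 0.19 with Trp53 deleted.

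The Prp19 complex (15 genes), the catalytic helicases and factors (8), the minor spliceosome (9) and the assembly and transport factors (17) had medians between -0.14 and -0.03 with Trp53 intact and between 0.07 and 0.29 with Trp53 deleted. Cwc22, which loads the exon junction complex, had 22.9, 9.76, 19.8 and 15.6 TPM and a difference of -1.15 with Trp53 intact; its exons overlap those of another gene. Gemin7, a subunit of the SMN complex that puts Sm rings on RNA, had 47.1, 44.3, 14.8 and 46.1 TPM, low in the Trp53 KO library alone. Cdc5l of the Prp19 complex had 71.9, 58.9, 62.7 and 84.2 TPM, and Scnm1 of the minor spliceosome had 67.2, 87.0, 72.5 and 89.2 TPM. The latter was higher in both Tut1-labelled libraries. Of the other Prp19-related genes, Xab2 had 35.7, 44.6, 37.5 and 36.2 TPM and Isy1, whose exons overlap another gene, had 22.7, 19.7, 22.8 and 20.2 TPM. The helicase Dhx16 was nearly level, with 31.4, 33.7, 33.5 and 33.4 TPM, and the second-step factor Slu7 had 21.3, 20.6, 17.0 and 23.8 TPM.

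Among the minor spliceosome genes, Rnpc3, whose exons overlap another gene, had 15.6, 13.5, 11.6 and 17.4 TPM, Zmat5 had 36.3, 45.3, 45.4 and 40.2 TPM and Zrsr1 had 13.4, 11.4, 9.68 and 12.1 TPM. Rnpc3 and Zrsr1 were lowest in the Trp53 KO library. Of the assembly factors, the SMN complex subunits Gemin6 and Gemin8 had 29.8, 22.8, 27.8 and 25.8 TPM and 14.7, 18.1, 19.2 and 18.8 TPM. Wdr77, which works with the methylase of Sm proteins and overlaps another gene, had 22.5, 15.8, 20.7 and 20.8 TPM, lowest in the labelled Tut1 KO library.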

How the data were processed

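Transcript levels in 4 mouse neural stem cell libraries, 1 per group by the labels, were read from a table of 55487 Ensembl gene IDs. The deposited values were TPM, computed by the authors. The submitters' processing notes name Trimmomatic, HISAT2, StringTie and mm10, with no role or order. The study's reagent list gives a Trimmomatic version without tying it to an experiment, and its methods state an aligner and annotation for long reads of embryonic palliums, not these cells. The HISAT2 and StringTie versions and the annotation behind this table were not given in the sources used here. The labels name a short-read stranded kit, whereas the series text describes long reads. TPM keeps no depth, so no counting interval was computed.

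Differences were taken between log2(TPM + 1), a scale that understates changes of low genes, for genes reaching 10 TPM in either library compared. A gene was called at a difference of at least 1. No test was run. Coordinates, exons, length and GC content came from GENCODE M21 (GRCm38) by Ensembl ID (57 of 57 members found), using the longest basic protein-coding transcript. Start-site windows came from RefSeq (GRCm38.p6), matched by symbol.

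Members and lists were chosen with earlier results of these data known. Values in all libraries are given for Tut1, Trp53, Lsm2 to Lsm8, members past the threshold, the 3 largest rises and falls per comparison, the highest and lowest member of each group, paralogues, and the largest rise and fall of each further list in the Tut1 comparisons; other members named were picked after their values were seen, and the values of 1 member are not reported here. The code was tested on simulated libraries. Tools were pandas 2.3.3 and numpy 2.4.6 under Python 3.11.15, with scipy 1.17.1 for correlations and matplotlib 3.10.9 for plots.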

Additional observations from a re-analysis of the deposited data

Results flagged for a closer look

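Tia1, an RNA-binding protein that helps U1 at weak 5′ splice sites, moved in opposite directions in the 2 Tut1 comparisons, by at least 1.5-fold in each. Its difference was 0.68 between the library labelled Tut1 KO and the control, and -1.25 between double KO and Trp53 KO, and these differed by 1.93 on the log2 scale. The Trp53 KO library had the highest value (68.2 TPM) and the double KO library the lowest (28.1 TPM). The difference was not tested, with 1 library per group. Its exons overlap those of another annotated gene on the same strand, so the value is uncertain. No gene of the snRNP, Lsm, Sf3 and Prpf families met this rule.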

How the results depend on the processing

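With 1 library per group spread between cultures is unknown, no library could be left out, and depth is unknown. No paired analysis of the 2 Tut1 comparisons was run, and each group holds 1 library. A median counted as moved at a shift over 0.1. Of 240 group medians under the alternatives, 236 moved by less. The others were U1 in Tut1 KO minus control, at 0.13 under quantile normalization, and in double KO minus Tut1 KO, at -0.090 after the GC and length correction, the other members in Tut1 KO minus control, at 0.10 after that correction, and the U6 group in double KO minus Tut1 KO, at -0.24 for members sharing no exons. Counts past the threshold were 0 in Tut1 KO minus control, 1 in double KO minus Trp53 KO and 0 in Trp53 KO minus control with a pseudocount of 5, where Prpf38b (0.97), Prpf3 (0.975) and Lsm10 (0.857) fell under it. After the GC and length correction the latter 2 counts were also 1 and 0, Prpf3 (0.997) and Lsm10 (0.92) being lost. At a 1.5-fold threshold they were 6 in each Tut1 comparison and 2 in double KO minus Tut1 KO. Members with both Tut1-labelled libraries above both others numbered 22 to 29, the most when medians were set to 0 (19.5% of all genes), and 2 or 3 were below in every alternative. This count and the pseudogene sums were chosen after seeing the data. The cause of these shifts was not tested.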

Other observations

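Processed pseudogenes were listed for few of the members. Next to Snrpert, the only listed copy above 10 TPM, the Sf3b4 pseudogene had 3.05, 6.02, 3.20 and 5.98 TPM in the control, labelled Tut1 KO, Trp53 KO and double KO libraries. Both Tut1-labelled values were above both others, as they were for Sf3b4 itself. Summed with its pseudogene, Sf3b4 had differences of 0.09 with Trp53 intact and 0.26 with Trp53 deleted.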
